A study of Homo sapiens with 6 samples.

Results

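Ephs, ephrins, semaphorins, plexins, neuropilins, Slits, Robos, netrins and netrin receptors are the classical guidance molecules. They were chosen by gene symbol, with earlier results of these data known. The symbols were EPHA and EPHB, EFNA and EFNB, SEMA3 to SEMA7, the plexins, NRP1 and NRP2, SLIT, ROBO, NTN, UNC5, DCC and NEO1. The symbols matched 70 of the 49278 genes named in the RNA-seq table. Of these 70 genes, 56 had a mean of at least 1 TPM (read density per transcript length, scaled to a common total) over the 6 libraries and were tested. The other 14, named at the end, lay under that level.

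Guidance molecules tell cells where to move, adhere or stop. Eph receptors are tyrosine kinases that bind ephrins on the surface of a neighbouring cell. The A ephrins hang on a lipid anchor and the B ephrins span the membrane, so that signals can run into both cells. Semaphorins act through plexins, and most of the secreted class 3 members need a neuropilin as co-receptor. Slits are large secreted proteins that bind Robo receptors. Netrins attract through DCC and neogenin (NEO1) and repel through UNC5 receptors. Beyond the nervous system, these families serve cell sorting, boundary formation and vessel growth in the embryo, and contact between Ephs and ephrins helps to keep germ layers apart in vertebrate gastrulae.

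The libraries came from HUES8, a human embryonic stem cell (ESC) line, induced for 3 days towards definitive endoderm (DE) in DMEM with Activin A at 100 ng/mL. WT cells gave 2 libraries, and PDHB+/- cells gave 4, from clone #1 and clone #2 with 2 each. PDHB encodes a subunit of the pyruvate dehydrogenase complex, which turns pyruvate into acetyl-CoA. Each clone was a single-cell line made with CRISPR/Cas9 and still carries 1 intact PDHB copy. The comparison asks how the guidance genes stood in DE-stage cells after partial loss of PDHB. The labels do not say whether replicates were separate cultures, so the p-values measure only the spread between these libraries. The main fit counted the 4 PDHB+/- libraries singly, though they come from 2 clones. Differences between the clones and WT other than in PDHB were not tested. Levels with ± are mean and SD over n = 2 WT and n = 4 PDHB+/- libraries, and fold changes with ± carry the SE.

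PDHB itself read 369 and 362 TPM in WT. Clone #1 had 178 and 166 TPM, clone #2 had 200.4 and 157 TPM. The 4 PDHB+/- libraries held 48.0% of the WT mean. All 13 DE marker genes passed the level filter, and 3 of them rose and 2 fell, against 22.8% and 8.86% of all genes. SOX17, EOMES and PRDM1 rose, by 0.74, 0.62 and 0.56 on the log2 scale, and GSC and HHEX fell by 0.52 and 0.41. FOXA2 (-0.11) and CXCR4 (-0.86) were among those that did not pass. Over the 13 markers the median log2 fold change was -0.11, against 0.13 for all genes. Their summed level ran from 16338 to 16548 TPM in WT and from 11414 to 15515 TPM in PDHB+/-. The libraries held 11366826 to 14314834 reads on genes, as recovered from the TPM values. In bulk RNA, fewer cells of a type and less RNA per cell cannot be told apart.

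The upstream sequences of 5 genes are printed because SLIT2 and EFNB2 had the largest fold changes of all guidance genes tested, and because EFNA4, EFNA3 and EFNA1 lie in a row on chromosome 1 and were all called higher. Each runs 5′ to 3′ over the 250 bases before the RefSeq start (GRCh38.p14): chr4:20251655-20251904 on the plus strand for SLIT2, chr13:106535663-106535912 on the minus strand for EFNB2, and chr1:155063490-155063739, chr1:155078587-155078836 and chr1:155127626-155127875 on the plus strand for EFNA4, EFNA3 and EFNA1. Capitals mark matches, on either strand, to the GC box GGGCGG, the CCAAT box CCAAT, the TATA letters TATAAA or TATATAA, the SMAD motif CAGACA and the GATA motif AGATAA. Adjoining GC boxes may share letters.
SLIT2: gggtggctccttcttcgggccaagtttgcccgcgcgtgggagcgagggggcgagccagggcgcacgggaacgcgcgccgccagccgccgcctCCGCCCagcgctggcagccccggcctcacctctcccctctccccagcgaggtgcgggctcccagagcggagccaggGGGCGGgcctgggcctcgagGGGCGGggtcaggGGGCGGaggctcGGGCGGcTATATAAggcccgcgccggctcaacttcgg
EFNB2: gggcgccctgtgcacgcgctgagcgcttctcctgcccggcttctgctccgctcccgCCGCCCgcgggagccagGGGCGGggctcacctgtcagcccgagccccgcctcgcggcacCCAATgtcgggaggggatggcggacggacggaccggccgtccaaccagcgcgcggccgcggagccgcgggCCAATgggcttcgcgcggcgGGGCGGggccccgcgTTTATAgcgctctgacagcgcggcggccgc
EFNA4: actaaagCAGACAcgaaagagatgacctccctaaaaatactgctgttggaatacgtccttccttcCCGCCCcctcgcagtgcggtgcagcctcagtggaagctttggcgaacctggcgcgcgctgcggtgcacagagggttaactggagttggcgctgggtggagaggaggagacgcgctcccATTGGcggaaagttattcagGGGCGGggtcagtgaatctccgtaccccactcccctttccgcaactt
EFNA3: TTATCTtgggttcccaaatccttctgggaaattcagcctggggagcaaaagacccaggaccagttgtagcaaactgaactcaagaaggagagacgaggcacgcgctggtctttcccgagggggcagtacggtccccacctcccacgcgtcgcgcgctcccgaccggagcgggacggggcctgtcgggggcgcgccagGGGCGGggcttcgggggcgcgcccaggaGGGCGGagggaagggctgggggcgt
EFNA1: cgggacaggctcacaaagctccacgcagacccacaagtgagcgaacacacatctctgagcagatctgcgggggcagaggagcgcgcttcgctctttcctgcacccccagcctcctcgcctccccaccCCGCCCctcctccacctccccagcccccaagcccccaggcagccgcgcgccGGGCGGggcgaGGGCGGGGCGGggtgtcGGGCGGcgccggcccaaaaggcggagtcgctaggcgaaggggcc

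SLIT2 and EFNB2 both carried TATA letters that began 30 bases before the start. EFNB2 held TATAAA on its reverse strand and SLIT2 held TATATAA on its forward strand. TATAAA was found in 10.7% and TATATAA in 2.42% of 35116 RefSeq windows of the same length. The table held 92 windows for 60 of the guidance genes, some with several starts, and 4 genes had either form in at least 1 window: EFNB2, EPHA7, SEMA3E and SLIT2. These 4 are counted by gene and the percentages by window. The GC box was the commonest of the motifs, with 5 matches for SLIT2, 3 for EFNB2, 2 for EFNA4, 2 for EFNA3 and 5 for EFNA1. At least 1 was held by 42.6% of all windows and, counted by gene, by 52 of the 60 guidance genes with a window. CCAAT, found in 32.0% of windows, matched at 2 places for EFNB2 and 1 for EFNA4. The SMAD motif (13.6% of windows) matched once in EFNA4, and the GATA motif (9.17%) once in EFNA3. The TCF/LEF motif CTTTGAT, the FOX motif TGTTTAC, the T-box motif AGGTGTG and the RBPJ motif GTGGGAA had no match in the 5 windows. CpG dinucleotides numbered 40 in the EFNB2 window, 30 in that of SLIT2, 24 in that of EFNA1, 23 in that of EFNA3 and 17 in that of EFNA4. The median was 17.5 over the guidance genes with a window and 11 over all windows. These matches describe letters only, and binding was not measured here.

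Across the guidance genes, the PDHB+/- libraries leaned upward. In PDHB+/- against WT, 27 of 56 passed an adjusted p of 0.05 in limma, which is 48.2% against 31.7% of all 17291 genes tested. Of these, 22 were higher (39.3%, against 22.8% of all genes) and 5 were lower (8.93%, against 8.86%). For the larger changes, 9 guidance genes (16.1%) were higher by a log2 fold change of at least 1, against 3.23% of all genes, and 1 (1.79%) was lower by as much, against 2.26%. SLIT2 and EFNA1, which are among the 9, the 22 and the 27, were under 1 TPM in WT and passed the level filter through the PDHB+/- libraries where they are high. Such genes had to differ, so these shares are a description and support nothing about the guidance genes. All 4 PDHB+/- libraries lay above both WT libraries for 31 guidance genes (55.4%, against 38.4% of all genes) and below both for 7 (12.5%, against 16.4%). The median log2 fold change was 0.30 for the guidance genes and 0.13 for all genes. No test of the list as a whole was made. The direction of the 27 calls was the same under every other setting that gave a value, 16 or 17 per gene, but 13 of the 27 passed under all of them. Those 13 were EPHA2, EPHA4, EPHA7, EFNA1, EFNA3, EFNA4, EFNB1, EFNB2, SEMA3C, SLIT2 and UNC5B on the higher side and EPHB2 and ROBO3 on the lower side.

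**Figure D1:**
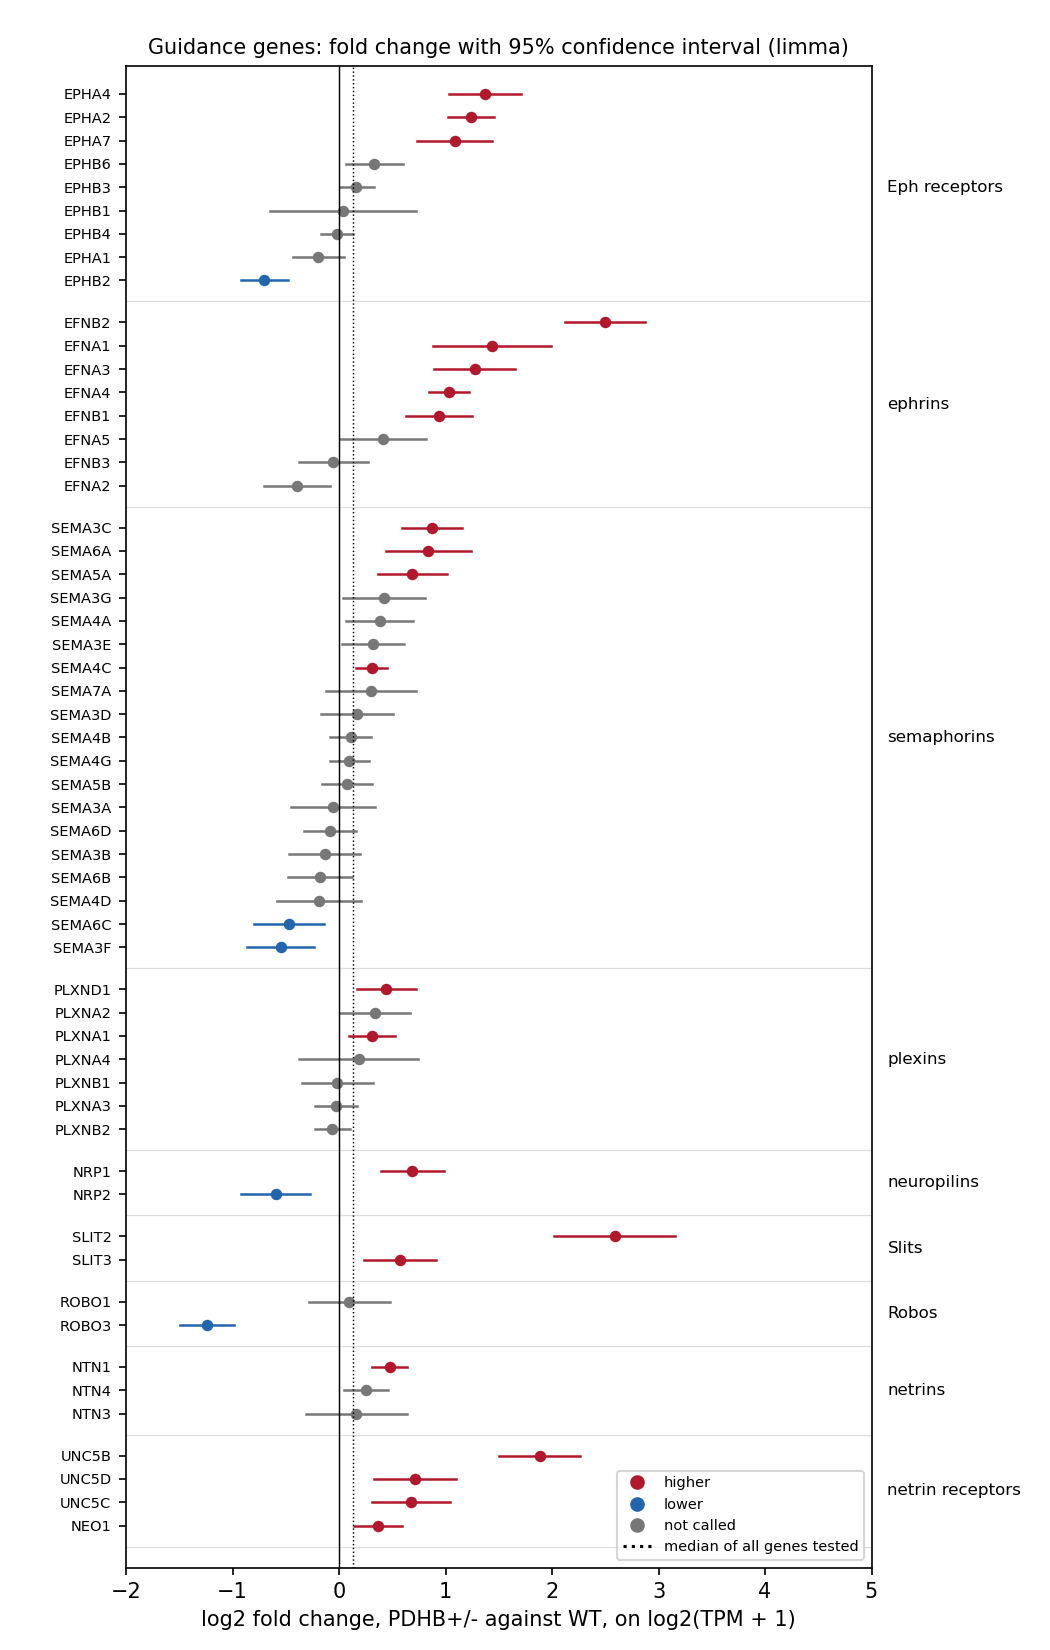
Log2 fold change of each of the 56 guidance genes tested, PDHB+/- against WT on log2(TPM + 1), as points with 95% confidence intervals from limma, ordered by role. Red marks the 22 genes called higher, blue the 5 called lower and grey the rest; the dotted line is the median of all genes tested, 0.13.

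The calls leaned on both WT libraries. Without WT replicate 1 the calls fell to 14 (10.2% of all genes were called) and without WT replicate 2 to 13 (9.58%), all of them among the 27, with the remaining WT library assumed to vary like the rest. Scaling also shaped the balance. The median of all genes stood 0.13 above zero on the log2 scale, and median-of-ratios scaling, which moved it to -0.001, gave 17 higher and 7 lower guidance genes, where 14.0% and 14.5% of all genes were called. Quantile normalization gave 18 and 7, against 15.7% and 14.5% of all genes. The share of higher calls among all genes went from 72.0% to 49.1% with median-of-ratios scaling.

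Summed over their members, the Eph receptors came to 307 ± 6.80 TPM in WT and 467 ± 28.9 TPM in PDHB+/-, given as a description with no test. The ephrins summed to 116 ± 0.82 TPM and 179 ± 7.45 TPM, and the Slits to 2.62 ± 0.19 TPM and 11.7 ± 2.44 TPM. For these roles, and for the netrins, netrin receptors, semaphorins and plexins, every PDHB+/- library lay above both WT libraries. Of all single genes tested, 38.4% did so. The mean sum in PDHB+/- was 1.15 times that of WT for the semaphorins and 1.16 times for the plexins, the smallest of these ratios. The sums are TPM without further scaling, while the median of all genes stood 0.13 above zero on the log2 scale. Whether the separation holds under another scaling was not tested. The neuropilins and the Robos overlapped between the groups.

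**Figure D2:**
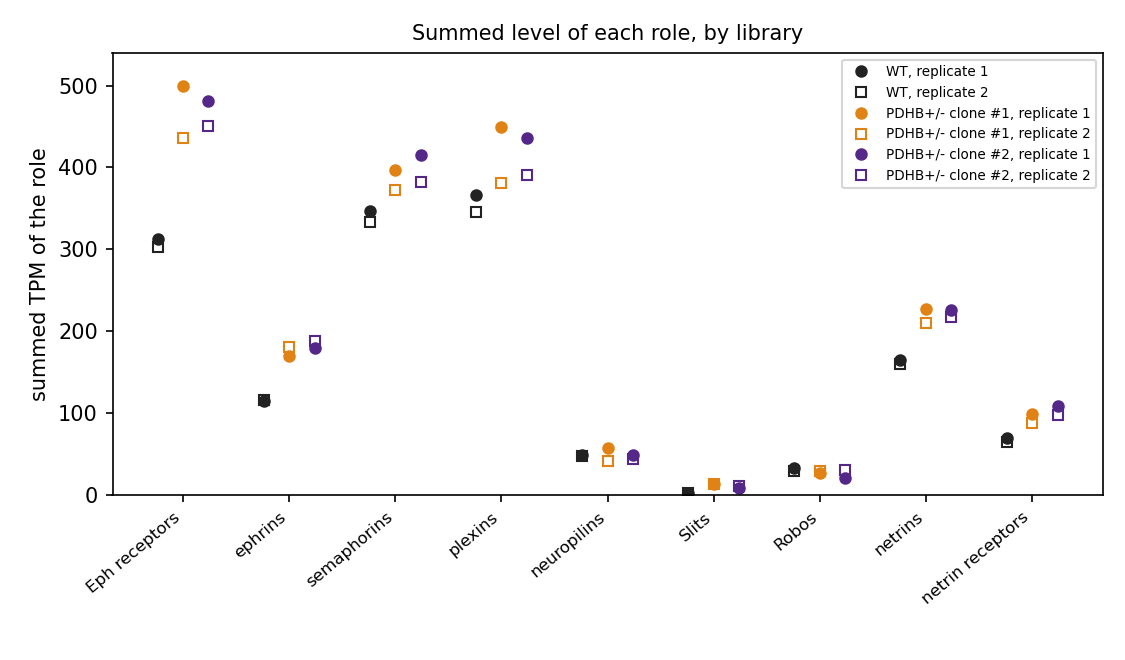
Summed TPM of all members of each of the 9 roles, 1 point per library (black WT, orange clone #1, purple clone #2; filled circles replicate 1, open squares replicate 2). The Eph receptors of the PDHB+/- libraries sit between 436 and 500 TPM, above the WT values of 303 and 312 TPM, while neuropilins and Robos overlap.

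Counts by role are few genes each, beside 22.8% higher and 8.86% lower of all genes. No difference between roles or classes was tested. Of 9 EphA receptors, 4 were tested, and 3 rose (EPHA2, EPHA4 and EPHA7) while EPHA1 did not pass. Of 5 EphB receptors, EPHB2 fell and EPHB1, EPHB3, EPHB4 and EPHB6 did not pass. EphA receptors made up 41.2% and 43.2% of the summed Eph level in the WT libraries and 59.1% to 64.0% in the PDHB+/- libraries. A share of this kind does not depend on the scaling of a library.

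EPHA2 is an EphA receptor of epithelia and of the early embryo, encoded at chr1:16124337-16156069 (hg38, minus strand). Its level was 79.7 and 82.8 TPM in WT, 216 and 175 TPM in clone #1, and 195 and 191 TPM in clone #2. All PDHB+/- libraries were thus above WT, by a log2 fold change of 1.24 ± 0.09 (SE; adjusted p = 0.000347). EPHA2 was the highest Eph receptor in the 4 PDHB+/- libraries, while EPHB4 was higher in both WT libraries. EPHA2 took 26.5% of the summed Eph level in WT and 41.5% in PDHB+/-.

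EPHA4, which binds both A and B ephrins, lies at chr2:221418027-221574202 on the minus strand. It stood at 26.6 and 27.0 TPM in WT, 81.4 and 60.05 TPM in clone #1, and 81.7 and 63.3 TPM in clone #2. In both clones replicate 1 was the higher of the pair, and the lowest PDHB+/- library was still above WT. The log2 fold change was 1.37 ± 0.14 (SE; adjusted p = 0.000931). EPHA7, at chr6:93240020-93419687 on the minus strand, was a low receptor, with 1.23 and 1.19 TPM in WT, 3.37 and 3.14 TPM in clone #1, and 4.03 and 4.35 TPM in clone #2. It rose by 1.09 ± 0.15 (SE; adjusted p = 0.00273) on the same scale, where the pseudocount of 1 TPM understates low genes, and its mean TPM in PDHB+/- was 3.07 times that of WT.

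Among the EphB receptors, EPHB2, a receptor for B ephrins, fell by 0.70 ± 0.09 (SE; adjusted p = 0.00246), from 16.4 ± 1.51 to 9.71 ± 0.58 TPM. EPHB4, the partner of EFNB2 in vessels, was the most abundant EphB receptor at 102 ± 3.76 TPM in WT and 100.4 ± 2.79 TPM in PDHB+/-. Its log2 fold change had a 95% interval from -0.17 to 0.13. The interval was -0.65 to 0.73 for EPHB1. For EPHB3 (0.005 to 0.32) and EPHB6 (0.06 to 0.60) it lay above zero, though neither passed after adjustment (adjusted p = 0.105 and 0.0634).

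Of the 8 ephrins, all tested, EFNA1, EFNA3, EFNA4, EFNB1 and EFNB2 rose and EFNA2, EFNA5 and EFNB3 did not pass. EFNA1 passed the level filter through the PDHB+/- libraries, so this count is not read against the share of all genes. EFNB2, a transmembrane ephrin best known from arteries, had the largest rise of the ephrins. It was at 1.77 and 1.78 TPM in WT, 18.3 and 12.4 TPM in clone #1, and 15.8 and 12.8 TPM in clone #2. The groups did not overlap, and the log2 fold change was 2.50 ± 0.16 (SE; adjusted p = 0.000224). These values rested on 160 and 175 reads in WT and 1371 to 1671 reads in clone #1. The gene lies at chr13:106489745-106535662 on the minus strand. In the GENCODE annotation 36.4% of its exonic bases lie opposite genes of the other strand, and since no strand setting is given for the counting, reads of either strand cannot be told apart. EFNB1, also an ephrin that spans the membrane, rose from 6.05 ± 0.01 to 12.6 ± 1.93 TPM.

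The A ephrins that rose were neighbours. EFNA4 (chr1:155063737-155069553), EFNA3 (chr1:155078837-155087538) and EFNA1 (chr1:155127876-155134899) all lie on the plus strand, with gaps of 9284 and 40338 bases between them. EFNA4 had the highest mean of the ephrins over the 6 libraries, though EFNA2 and EFNB3 were above it in WT. It stood at 20.9 and 21.8 TPM in WT, 44.9 and 40.8 TPM in clone #1, and 47.2 and 46.4 TPM in clone #2. Its log2 fold change of 1.03 ± 0.08 (SE; adjusted p = 0.000396) came with no overlap between the groups. EFNA3 stood at 15.7 and 14.3 TPM in WT, 30.05 and 43.7 TPM in clone #1, and 34.7 and 44.02 TPM in clone #2. Replicate 2 was the higher in both clones, and the rise was 1.27 ± 0.16 (SE; adjusted p = 0.00198). The read-through gene EFNA4-EFNA3 shares 43.9% of the exonic bases of EFNA3 and 15.0% of those of EFNA4, so reads of the separate genes and the joined transcript may be mixed there.

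EFNA1 was barely detected in WT. It had 3 and 4 reads there (0.41 and 0.50 TPM), 18 and 37 reads in clone #1 (2.45 and 4.15 TPM), and 2.02 and 3.48 TPM in clone #2. All 4 PDHB+/- libraries were higher, and replicate 2 exceeded replicate 1 in both clones. Per library read, PDHB+/- held 6.17 times the WT level, with a 95% interval of 2.89 to 15.7 that covers counting error only. Its log2 fold change of 1.43 ± 0.24 (SE; adjusted p = 0.00510) is lower than this ratio because of the pseudocount, and a pseudocount of 0.1 TPM gave 2.44. EFNA2 went the other way without passing, at 37.7 and 37.2 TPM in WT and 22.6 to 31.2 TPM in PDHB+/- (adjusted p = 0.0582), and it was called lower under 8 of the other settings.

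**Figure D3:**
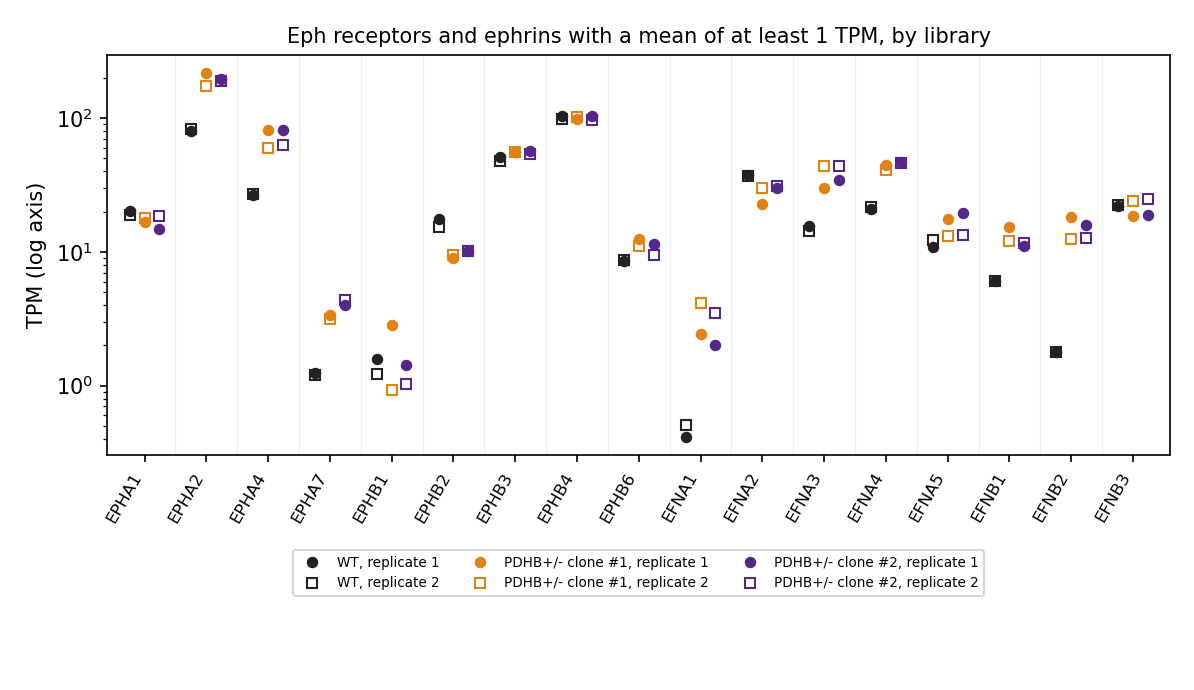
TPM of the 9 Eph receptors and 8 ephrins tested, on a log axis, 1 point per library (black WT, orange clone #1, purple clone #2; filled circles replicate 1, open squares replicate 2). EFNB2 shows the widest gap among the ephrins, from 1.77 and 1.78 TPM in WT to 12.4 TPM or more in PDHB+/-, while EPHB4 stays near 100.4 TPM throughout.

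The semaphorins had a share of calls close to that of all genes, which was 31.7%. Of 19 tested, 4 rose (SEMA3C, SEMA4C, SEMA5A and SEMA6A), 2 fell (SEMA3F and SEMA6C) and 13 did not pass. SEMA3C, a secreted semaphorin of the outflow tract and neural crest, went from 4.72 ± 0.23 to 9.54 ± 1.16 TPM, a log2 fold change of 0.88. SEMA6A, a transmembrane ligand of A plexins, went from 4.15 ± 0.10 to 8.33 ± 1.79 TPM, and SEMA5A, also bound to the membrane, from 33.98 ± 3.05 to 55.7 ± 8.40 TPM. SEMA4C changed least of the 4, by 0.31 on the log2 scale, and was not called under 4 of the 17 other settings, median-of-ratios scaling among them. SEMA3F, the secreted ligand of NRP2, fell by 0.55, from 18.3 ± 1.24 to 12.3 ± 1.78 TPM. SEMA6C fell by 0.47 and kept its call under 9 of 17 settings.

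SEMA3E, which signals through PLXND1 without a neuropilin, lies at chr7:83363238-83649139 on the minus strand. It had the highest mean of the semaphorins over the 6 libraries, though SEMA4C and SEMA5A were above it in clone #1 replicate 1. SEMA3E stood at 56.7 and 58.3 TPM in WT, 65.1 and 64.1 TPM in clone #1, and 85.4 and 75.8 TPM in clone #2. Both clones lay above WT without overlap, clone #2 by more, and the comparison of all PDHB+/- libraries with WT did not pass (0.32 ± 0.12, SE; adjusted p = 0.0859). Clone #2 alone was called higher (0.48 ± 0.09, SE; adjusted p = 0.0195), and clone #1 was not (adjusted p = 0.228). A direct comparison of the clones did not call SEMA3E. The other 12 semaphorins that did not pass, such as SEMA3A and SEMA5B, had log2 fold changes between -0.19 and 0.42.

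Of 7 plexins tested, the receptors of the semaphorins, PLXNA1 and PLXND1 were called higher, by 0.31 and 0.45 on the log2 scale. Neither call was firm. PLXNA1 passed under 7 and PLXND1 under 8 of the 17 other settings. PLXNA2, the most abundant plexin (chr1:208022242-208244384, minus strand), had 130 and 120 TPM in WT, 188 and 139 TPM in clone #1, and 172 and 137 TPM in clone #2. All PDHB+/- libraries were above WT, with replicate 1 well above replicate 2 in both clones, and the difference did not pass (0.34 ± 0.14, SE; adjusted p = 0.109). The intervals of PLXNA3, PLXNB1 and PLXNB2 spanned zero, from -0.35 to 0.32 at the widest, and that of PLXNA4 ran from -0.37 to 0.74.

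The neuropilins turned in opposite directions. NRP1, a co-receptor for class 3 semaphorins and for VEGF, rose from 15.8 ± 0.60 to 26.2 ± 3.54 TPM, by 0.69 ± 0.12 (SE; adjusted p = 0.00726). NRP2 (chr2:205681990-205798133, plus strand) stood at 33.7 and 32.0 TPM in WT, 26.4 and 19.0 TPM in clone #1, and 22.1 and 18.9 TPM in clone #2, and fell by 0.59 ± 0.14 (SE; adjusted p = 0.0172). NRP1 made up 31.3% and 33.6% of the summed neuropilin level in WT. In clone #1 it took 53.6% and 53.7%, and 55.1% and 57.1% were reached in clone #2. NRP2 was thus the higher neuropilin in both WT libraries and NRP1 in all 4 PDHB+/- libraries, with lengths as the authors counted them. Neither call held when a WT library was left out.

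**Figure D4:**
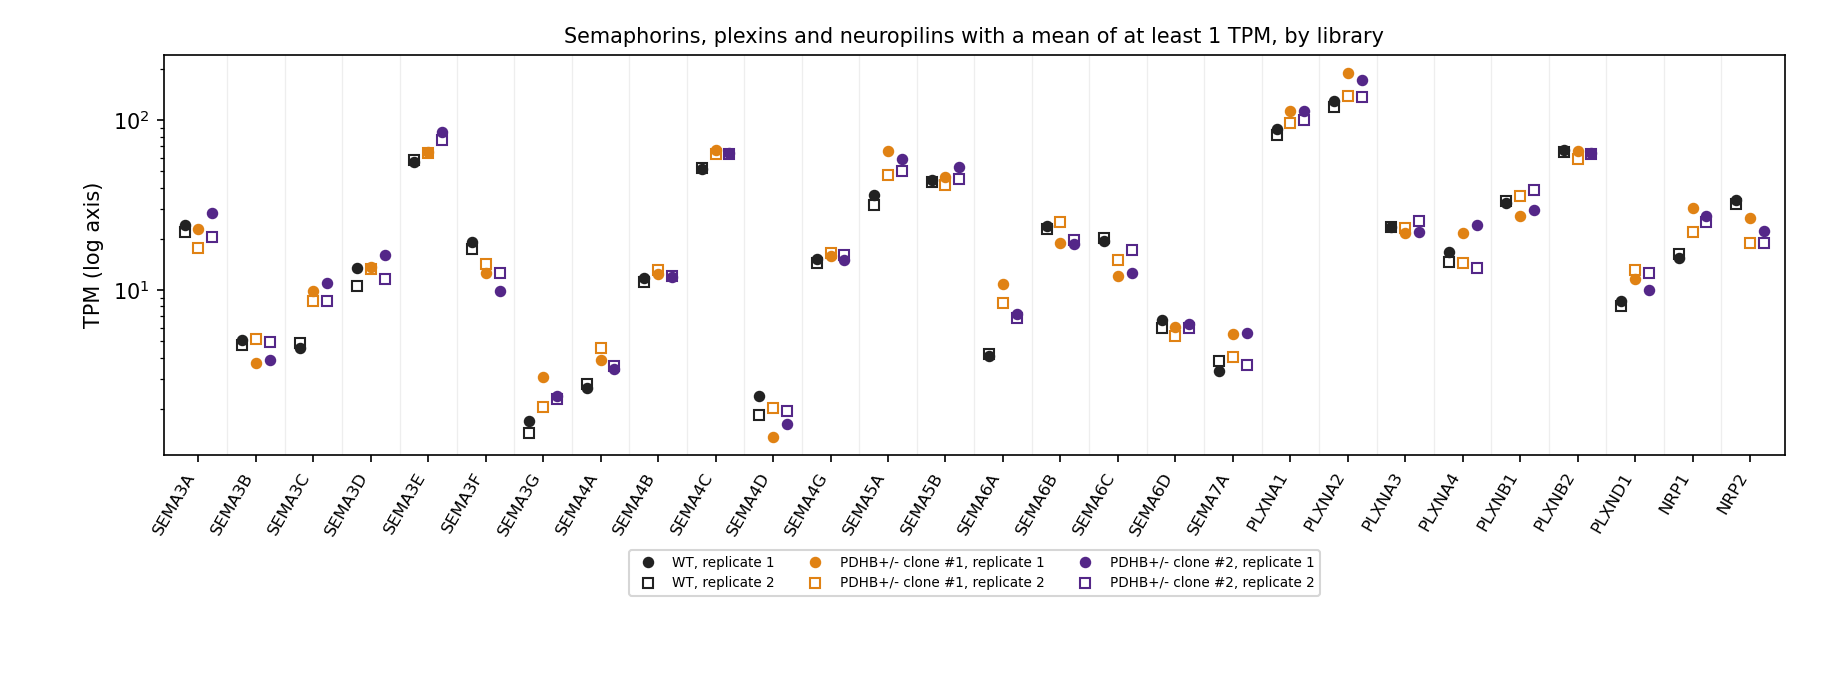
TPM of the 19 semaphorins, 7 plexins and 2 neuropilins tested, on a log axis, 1 point per library (black WT, orange clone #1, purple clone #2; filled circles replicate 1, open squares replicate 2). NRP1 lies above WT and NRP2 below it in every PDHB+/- library, and 13 of the 19 semaphorins did not pass the test.

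SLIT2 gave the largest fold change of all guidance genes tested. The SLIT2 gene, at chr4:20251905-20620561 on the plus strand, encodes a secreted repellent. Its level was 0.54 and 0.46 TPM in WT, 11.04 and 9.28 TPM in clone #1, and 5.47 and 7.18 TPM in clone #2. WT held 26 and 24 reads of it, and clone #1 held 539 and 549. The log2 fold change was 2.59 ± 0.24 (SE; adjusted p = 0.000661), and limma voom on recovered reads, which adds no TPM pseudocount, gave 3.86. Counted in reads per library, PDHB+/- held 15.3 times the WT level, with a 95% counting interval of 11.5 to 20.7. SLIT3, also tested, rose from 1.56 ± 0.17 to 2.82 ± 0.34 TPM. SLIT2 made up 18.3% to 19.5% of the summed Slit level in WT and 63.3% to 78.8% in PDHB+/-.

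Of their receptors, ROBO1 and ROBO3 were tested and neither rose. ROBO2 was under the level filter, at 0.60 ± 0.05 TPM in WT and 1.12 ± 0.05 TPM in PDHB+/-, with all 4 PDHB+/- libraries above WT. ROBO1, the main Slit receptor here (chr3:78597239-79767998, minus strand), stood at 21.98 and 19.3 TPM in WT, 22.5 and 24.7 TPM in clone #1, and 16.9 and 25.4 TPM in clone #2. The groups overlapped, and the 95% interval of its log2 fold change ran from -0.28 to 0.48. ROBO3 (chr11:124865432-124881471, plus strand), a divergent Robo that steers commissural axons, stood at 10.7 and 9.26 TPM in WT, 3.49 and 3.89 TPM in clone #1, and 3.37 and 3.78 TPM in clone #2. It fell by 1.24 ± 0.11 (SE; adjusted p = 0.000527), the largest fall among the 56 genes tested, and its 4 PDHB+/- libraries lay close together. ROBO3 took 31.8% to 32.0% of the summed Robo level in WT and 12.5% to 15.8% in PDHB+/-. ROBO4 lies 2220 bases away on the other strand and held at most 2 reads in any library.

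Of 3 netrins tested, 1 was called. NTN1, the founding netrin (chr17:9021510-9244000, plus strand), was the most abundant guidance gene in WT, with 134 and 127 TPM, and had 191.5 and 174 TPM in clone #1 and 185 and 176 TPM in clone #2. It rose by 0.48 ± 0.07 (SE; adjusted p = 0.00364) with no overlap between the groups. NTN4, a laminin-binding netrin, and NTN3 did not pass, with adjusted p of 0.0676 and 0.572. In clone #2 alone NTN4 was called higher (0.35 ± 0.08, SE; adjusted p = 0.0297), and in clone #1 it was not (adjusted p = 0.201). The direct comparison of the clones did not call NTN4.

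The 4 netrin receptors tested were called higher, against 22.8% of all genes, and UNC5B alone kept its call without either WT library. UNC5B, a repulsive netrin receptor that also binds FLRT3 (chr10:71212570-71302864, plus strand), stood at 2.27 and 3.09 TPM in WT, 15.6 and 10.7 TPM in clone #1, and 12.6 and 11.7 TPM in clone #2. The lowest PDHB+/- library was more than 3 times the highest WT library, and the log2 fold change was 1.89 ± 0.16 (SE; adjusted p = 0.000490). UNC5C rose from 2.13 ± 0.003 to 4.03 ± 0.71 TPM and UNC5D from 1.36 ± 0.17 to 2.88 ± 0.51 TPM. NEO1 (chr15:73051710-73305205, plus strand), the most abundant netrin receptor, stood at 62.5 and 57.4 TPM in WT, 74.6 and 70.4 TPM in clone #1, and 86.8 and 79.4 TPM in clone #2. Its rise of 0.37 ± 0.10 (SE; adjusted p = 0.0269) was lost under median-of-ratios scaling, under quantile normalization and without either WT library.

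**Figure D5:**
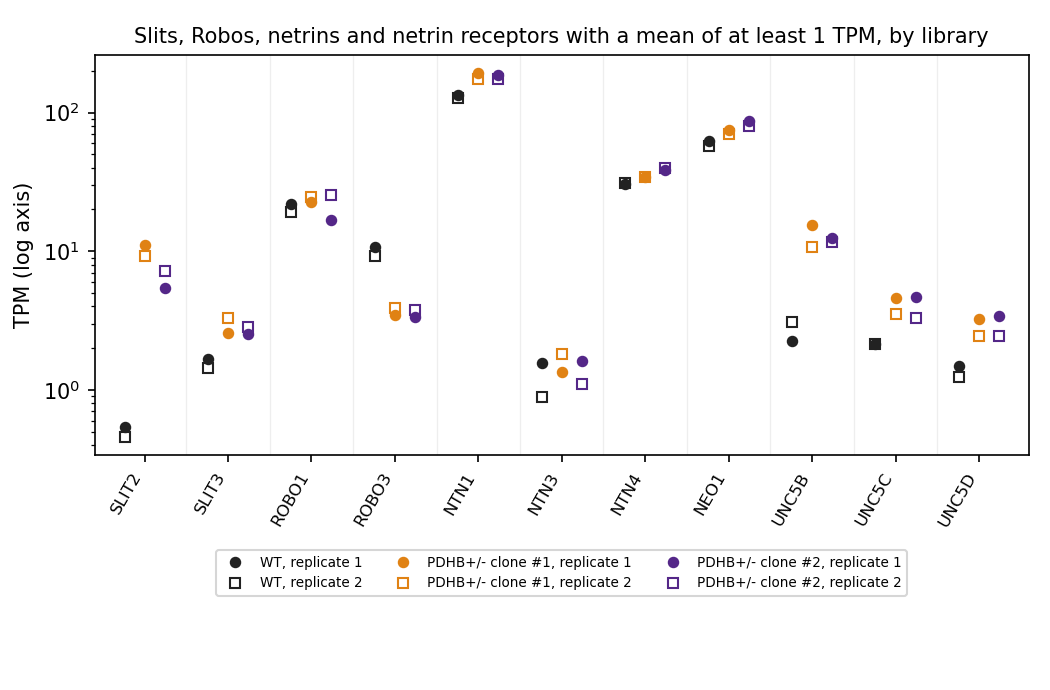
TPM of the 2 Slits, 2 Robos, 3 netrins and 4 netrin receptors tested, on a log axis, 1 point per library (black WT, orange clone #1, purple clone #2; filled circles replicate 1, open squares replicate 2). SLIT2 goes from 0.54 TPM or less in WT to 5.47 TPM or more in PDHB+/-, UNC5B rises, ROBO3 falls and ROBO1 overlaps.

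By level, NTN1, PLXNA2, EPHB4, PLXNA1 and EPHA2 were the 5 highest guidance genes in WT, in that order, and the same 5 led in PDHB+/- with EPHA2 first. NTN1 was above PLXNA2 in both WT libraries, while PLXNA1 and EPHA2 changed places between them. EPHA2 was above NTN1 in each of the 4 PDHB+/- libraries, by as little as 175 against 174 TPM in clone #1 replicate 2. EPHA4 went from rank 17 to rank 8 of 70. Such ranks depend on the gene lengths the authors divided by. The length recovered for EFNB2 was 19246 bases against 5005 exonic bases in GENCODE, and that of EPHA2 was 6173 against 4141. Of all guidance genes, 6 had a recovered length more than 2 times the GENCODE length. Ratios of TPM between libraries do not depend on the length, but log2(TPM + 1) fold changes do through the pseudocount.

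Both clones were compared with the same WT libraries. In clone #1, 18 of 56 guidance genes were called or 32.1% against 19.9% of all genes. Of these, 16 were higher (28.6%, against 13.4%) and 2 lower (3.57%, against 6.44%). In clone #2, 23 were called, or 41.1% against 20.0%, with 19 higher (33.9%, against 14.5%) and 4 lower (7.14%, against 5.51%). SLIT2 and EFNA1, under 1 TPM in WT, are among the higher calls of both clones. They passed the level filter through the PDHB+/- libraries, so these shares too are a description and support nothing about the guidance genes. Without WT replicate 1 the calls numbered 5 in clone #1 and 3 in clone #2, where 1.97% and 1.48% of all genes were called. Without WT replicate 2 they numbered 6 in either clone, where 2.63% and 1.70% of all genes were. Without its own replicate 1, clone #2 had 10 calls, against 7.10% of all genes. SLIT2 had a log2 fold change of 2.89 ± 0.17 (SE) in clone #1 and 2.28 ± 0.17 in clone #2. EFNB2 had 2.54 and 2.45, UNC5B had 1.93 and 1.84, EPHA2 had 1.25 and 1.24, and ROBO3 had -1.22 and -1.26. Between clone #2 and clone #1, 0 guidance genes passed in limma, where 0.0174% of all genes did, and limma voom gave 0 as well. At an unadjusted p of 0.05, 4 of 56 passed (7.14%, against 3.82% of all genes). These were SLIT2 and SEMA6A, lower in clone #2 by 0.61 and 0.39, and SEMA3E and NTN4, higher by 0.31 and 0.20. The 95% interval of the SLIT2 difference ran from -1.03 to -0.20.

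Replicates differed more in the clones than in WT. The median absolute difference between replicate 1 and replicate 2 over the 56 guidance genes was 0.08 in WT, 0.26 in clone #1 and 0.21 in clone #2 on the log2 scale. Over all genes tested it was 0.10, 0.17 and 0.18. In 49 of the 56 genes the sign of that difference was shared by the clones, with replicate 1 higher in 30 and replicate 2 in 19. That is 87.5%, against 70.9% of all genes, so a shared sign was common across the whole table. EPHA4, PLXNA2 and EFNB2 were higher in replicate 1, and EFNA1 and EFNA3 in replicate 2. With replicate 1 of the clones alone against both WT libraries, 33 guidance genes were called, where 38.7% of all genes were. With replicate 2 alone, 26 were called, where 32.2% of all genes were.

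Around these families, 67 further genes were listed as transducers, co-receptors or other ligands. Of the 54 tested, 20 rose (37.0%) and 4 fell (7.41%), against 22.8% and 8.86% of all genes. Their median log2 fold change of 0.18 was near that of all genes. Voom on recovered reads gave 15 higher and 9 lower, where 16.8% and 15.0% of all genes were called. Leaving out a WT library lost most of the calls, as it did over all genes. The largest rises were FLRT3, a membrane ligand of UNC5 receptors, from 14.7 ± 0.83 to 38.9 ± 6.31 TPM (log2 fold change 1.34), KDR, the VEGF receptor that pairs with NRP1, from 17.7 ± 0.29 to 45.8 ± 4.96 TPM (1.31), and the Rac activator TIAM1, from 6.31 ± 0.10 to 15.5 ± 1.06 TPM (1.17). DPYSL3, a cytoskeletal phosphoprotein of the CRMP family, went from 308 ± 11.98 to 194 ± 23.2 TPM and fell by 0.67. FYN, a Src-family kinase downstream of Ephs, fell by 0.62, and RGMA, a repulsive ligand of neogenin, fell by 0.61.

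Markers of other cell types differed beside the guidance genes, in either direction. The shares of all genes to read these counts against are 22.8% higher and 8.86% lower. Of 12 primitive streak and mesoderm markers, 7 were tested and 6 rose (EVX1, HAND1, SNAI2, KDR, PDGFRA and TBXT). SNAI2, HAND1 and TBXT were under 1 TPM in WT, SNAI2 at 0, and passed the level filter through the PDHB+/- libraries where they are high, so the count is not read against the share of all genes. Their summed level was 1045 to 1076 TPM in WT and 1053 to 1193 TPM in PDHB+/-, most of it MIXL1, and MSGN1 was also listed at 0 in both WT libraries. Of 10 ESC markers, 5 rose and 1 fell, POU5F1 and NANOG by 1.43 and 1.48, PRDM14, LIN28A and DPPA4 by less. ZFP42 fell by 2.42. The summed levels were 2443 to 2486 TPM in WT and 2561 to 3046 TPM in PDHB+/-. Of 8 neural markers, 5 were tested, and NEFM, NEFL and NES rose, by 4.15, 2.95 and 0.83. PAX6 had -0.61 ± 0.22 and did not pass (adjusted p = 0.0682). It was called lower in clone #1 and not in clone #2, and the direct comparison of the clones did not call it. Their summed level was 603.6 to 622 TPM in WT and 605 to 856 TPM in PDHB+/-. Of 4 neural crest markers, 2 were tested. SOX10 fell by 1.98 and FOXD3 rose by 0.75, and the summed level was 21.3 to 21.9 TPM in WT and 6.21 to 8.43 TPM in PDHB+/-. Of 6 extraembryonic endoderm and amnion markers, 3 were tested. ISL1 rose by 1.74 and TFAP2C fell by 1.19, APOA1 did not pass, and TTR was listed at 0 in every library. Their summed level was 23.97 to 28.4 TPM in WT and 25.9 to 42.7 TPM in PDHB+/-. Of 6 endothelial markers only TEK reached the level filter, and it rose from 1.63 ± 0.36 to 7.72 ± 2.68 TPM. Their summed level was 2.14 to 2.26 TPM in WT and 5.96 to 11.2 TPM in PDHB+/-. PECAM1 and CDH5, which define endothelium, stayed at 0.30 TPM or less in every library. The part of these cell types in the guidance gene differences was not tested.

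The 14 genes under a mean of 1 TPM were DCC, EPHA3, EPHA5, EPHA6, EPHA8, EPHA10, NTN5, PLXNB3, PLXNC1, ROBO2, ROBO4, SEMA4F, SLIT1 and UNC5A. DCC, the classical attractive netrin receptor, had at most 13 reads in a library.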

How the data were processed

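RNA-seq libraries of HUES8 cells at the DE stage (2 WT, 2 of PDHB+/- clone #1 and 2 of clone #2) were analysed. The authors aligned reads to hg38 with bowtie2, kept 1 location per read, counted with featureCounts and converted the counts to TPM. Their processing notes name Bowtie2 2.3.5.1 and FastQC 0.12.1. The values in the deposited table are TPM (recorded as another unit, since a nameless line repeats each total of 1000000, and was dropped). The annotation and the strand setting are not given in the sources used here. The authors name DESeq2, which needs counts and was not used.

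Genes averaging 1 TPM or more were analysed as log2(TPM + 1) with limma 3.58.1 in R 4.3.3 (lmFit, eBayes with a trend), with PDHB+/- against WT in 2 groups and the clones in 3 groups. P-values were adjusted by Benjamini-Hochberg over all 17291 genes and called under 0.05. The ± of a fold change is its SE. Reads per gene were recovered as whole multiples, within 0.001 reads, for 99.99% of genes above 0, and served for depth, counting intervals at 95% and the voom alternative. They carry no molecular identifiers, so intervals cover counting error only. At a length of 1000 bases, 3 reads correspond to 0.522 to 0.639 TPM. The limma script was tested on simulated data. Positions come from GENCODE 44 (hg38) and sequences from RefSeq (GRCh38.p14), where 60 of 70 symbols had a promoter entry, the first listed being used for the printed sequences and all listed for counts of motifs.

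The guidance genes and the marker and pathway lists were chosen with earlier results of these data known. Genes given by library are those called with a log2 fold change of 1 or more in size, the highest of each of 9 roles, and any called between the clones. Alternatives were another pseudocount or filter, other scalings, no trend, voom, clone means, a replicate block, only the compared libraries, each library left out and, chosen after seeing the data, each clone replicate alone.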

Additional observations from a re-analysis of the deposited data

Results flagged for a closer look

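Among 4 PDHB+/- libraries, a value that stood apart from the other 3 was looked for in 57 genes, the 56 guidance genes tested and PDHB. By chance about 1 in 20 groups, here 2.85, would show one. There were 2. EFNA2, an A ephrin, stood at 22.62 TPM in clone #1 replicate 1 against 30.1 to 31.2 TPM in the others. Without that library EFNA2 was called lower in PDHB+/-, as it was under 7 further settings. SEMA6B, a transmembrane semaphorin, stood at 25.13 TPM in clone #1 replicate 2 against 18.5 to 19.6 TPM in the others, and without that library SEMA6B was called lower. Neither gene was called in the main fit with all libraries. Causes were not tested.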

How the results depend on the processing

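None of the 27 guidance genes called in PDHB+/- against WT changed direction under any other setting that gave a value. Against 27 guidance genes in PDHB+/- against WT, the other pseudocount, filters, scalings, voom, clone means and the single clone replicates gave 23 to 33. The 23 without a filter are over all 70 genes. They include EPHA3, EPHA10 and DCC, which lay under 1 TPM and were not among the 56. Of the 27, 20 passed without a filter. Leaving out 1 library gave 13 to 26, with 14 without WT replicate 1 and 13 without WT replicate 2. In clone #1 against WT (18 calls) this gave 5 to 21, with 5 and 6 without WT replicate 1 and 2. In clone #2 against WT (23 calls) it gave 22 without either clone #1 library. Without a WT or clone #2 library it gave fewer than 22, and the calls over all genes fell too. For the pathway genes (24 calls) it gave 7 to 23, with 8 and 7 without WT replicate 1 and 2. Between the clones it gave 0 throughout. These fits have fewer samples, and 1 library left in a group is assumed to vary like the rest. The cause of the other shifts was not tested.

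The replicate number as a block gave 28 guidance genes in PDHB+/- against WT, with 6266 of all genes against 5475. In clone #1 against WT it gave 28, against 18 without the block, where 25.6% of all genes were called against 19.9%. Same-numbered libraries deviated together between the clones (r = 0.35 across 17291 genes, which are not independent). They did not do so between WT and clone #1 (r = -0.01) or clone #2 (r = -0.01), so the numbers were not shown to pair WT with the clones. The main comparison between the clones did not use the replicate number.

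Over all genes, 5475 were called, and 1770 and 1657 without WT replicate 1 and 2. Voom called 5508 with 52.9% of them higher, against 72.0%. At least 3 reads in every library of a group were found for 68 of the 70 guidance genes, against 56 at 1 TPM. Genes near 3 reads in WT, such as EFNA1, are limited by depth.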

Other observations

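Several Eph and other receptors under 1 TPM were looked at after their values were seen. EPHA3, an EphA receptor of mesenchyme, had 4 and 1 reads in WT, 34 and 31 in clone #1, and 28 and 37 in clone #2. Per library read, PDHB+/- held 11.2 times the WT level, with a 95% counting interval of 4.69 to 35.2. EPHA10, a kinase-dead Eph, had 2 and 4 reads in WT and 14 to 21 in PDHB+/-, a ratio of 4.89 (2.14 to 13.8). EPHA5, a mostly neural receptor, had 0 reads in both WT libraries and 22 in the 4 PDHB+/- libraries. When all genes were fitted without a level filter, limma called EPHA3 higher (adjusted p = 0.00886), EPHA10 higher (0.0251) and DCC lower (0.0485), and EPHA5 did not pass (0.112). DCC had 13 and 12 reads in WT and 4 to 6 in PDHB+/-. ROBO2, a Slit receptor, had 31 and 30 reads in WT and 54 to 71 in PDHB+/- and did not pass (0.0712). In that fit 8.56% of all genes were called higher and 4.32% lower.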
